A study of Mus musculus with 13 samples.

Results

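Rspry1, Ppp2r5a, Xdh, Kbtbd8 and Arhgap12 are 5 transcripts whose levels differed between single GV oocytes, in several cases as much within a nucleolar class as between the classes. They were chosen by their values in germinal vesicle (GV) oocytes: Kbtbd8 and Arhgap12 head the study's list of genes lower in NSN than in SN GV oocytes, and Rspry1, Ppp2r5a and Xdh head the list of genes higher in NSN. Xdh and Ppp2r5a also head the corresponding list for metaphase II (MII) oocytes. All 5 were found among the 18939 genes with counts, and all 5 passed the filter on low counts that kept 11375 genes. The difference between NSN and SN at GV chose the members, so their GV values are given as a description, without a test.

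The libraries were 13 single oocytes of C57BL/6 females aged 3 to 4 weeks, collected 48 h after priming with PMSG, a gonadotropin that drives follicle growth. Every oocyte had been injected with mRNA of FBL-GFP, a fluorescent fibrillarin that marks the nucleolus, held at the GV stage for 6 h in Cilostamide, an inhibitor of phosphodiesterase 3, and sorted into 2 classes. In SN oocytes the chromatin surrounds the nucleolus, and in NSN oocytes it does not. There were 3 SN GV and 3 NSN GV oocytes, and 4 SN-MII and 3 NSN-MII oocytes that had been released from the inhibitor and matured in culture. For imaging, mRNA of H2B-mCherry, a chromatin marker, was injected as well. No uninjected oocyte was among the libraries. The labels do not tie oocytes to females, so p-values measure the spread between these oocytes, which may partly be technical.

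A growing oocyte stores mRNA for the time when its genome is silent. Transcription is still active in most NSN oocytes and falls as the chromatin condenses around the nucleolus. During maturation to MII no new mRNA is made in bulk: many stored messages are degraded, while others gain poly(A) tails and are translated. The 5 genes act in separate pathways. Ppp2r5a encodes B56 alpha, a regulatory subunit of the phosphatase PP2A, whose B56 forms partner shugoshin in protecting cohesin at meiotic centromeres. Xdh encodes xanthine dehydrogenase, which oxidizes hypoxanthine to xanthine and xanthine to urate, and hypoxanthine is known as a purine that keeps cultured mouse oocytes arrested. Kbtbd8 encodes a BTB-Kelch adaptor that brings substrates, among them the nucleolar proteins NOLC1 and TCOF1, to the ubiquitin ligase CUL3. Arhgap12 encodes a GTPase-activating protein, and Rspry1 a protein with a RING finger and a SPRY domain.

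Total counts per library lay between 7140416 and 8846287. Between 12699 and 13342 genes had a count in the GV libraries, and between 11593 and 12522 in the MII libraries, with the fewest in NSN-MII 3. The 18 oocyte markers together reached 32828 to 50506 CPM. The 16 markers of cumulus and granulosa cells reached 60.7 to 95.0 CPM in GV and 101 to 186 CPM in MII libraries, and 2 of them were at 0 throughout. CPM are counts brought to a common library total by TMM, a normalization that sets the bulk of genes equal between libraries. The lowest count behind any value of a member was 309. The spread that counting error of reads alone gives, as a root mean square over the libraries of a stage, was at most 0.054 on the log2 scale.

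Promoter windows of 300 bases, from 250 bases before to 50 after the RefSeq start, were at hand for 3 of the 5 members on GRCm38.p6, and are shown because these transcripts moved together or in opposition. Capitals mark CCAAT, the core of the box bound by NF-Y, or its complement ATTGG. The windows are chr8:94601691-94601990 on the plus strand for Rspry1, chr1:191396992-191397291 on the minus strand for Ppp2r5a, and chr6:95117630-95117929 on the plus strand for Kbtbd8. Each is written along its gene from 5′ to 3′.
Rspry1: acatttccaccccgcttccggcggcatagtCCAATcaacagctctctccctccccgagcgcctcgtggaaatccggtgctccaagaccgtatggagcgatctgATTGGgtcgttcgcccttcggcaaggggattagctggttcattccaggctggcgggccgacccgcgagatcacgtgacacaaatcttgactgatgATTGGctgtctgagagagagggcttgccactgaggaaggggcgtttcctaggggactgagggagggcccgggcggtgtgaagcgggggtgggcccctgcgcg
Ppp2r5a: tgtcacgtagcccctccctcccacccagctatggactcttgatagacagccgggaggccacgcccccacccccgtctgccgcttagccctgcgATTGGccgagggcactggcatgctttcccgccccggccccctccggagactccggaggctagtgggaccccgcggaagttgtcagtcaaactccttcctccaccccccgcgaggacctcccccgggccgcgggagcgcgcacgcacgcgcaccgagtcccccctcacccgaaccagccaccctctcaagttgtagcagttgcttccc
Kbtbd8: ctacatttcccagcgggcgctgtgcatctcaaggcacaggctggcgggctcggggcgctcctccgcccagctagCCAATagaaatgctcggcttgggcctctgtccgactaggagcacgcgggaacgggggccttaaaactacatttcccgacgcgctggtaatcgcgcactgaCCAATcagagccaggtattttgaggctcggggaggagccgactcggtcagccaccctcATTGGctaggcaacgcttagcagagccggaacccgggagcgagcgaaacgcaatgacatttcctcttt
Rspry1 and Kbtbd8 hold 3 CCAAT or ATTGG each, and Ppp2r5a holds 1. Of 32851 promoter windows of this length, 37.4% hold at least 1, both strands counted. The share with 3 was not computed, and a link of these letters to the levels was not tested. The E-box letters CANNTG occur once each in the windows of Rspry1 and Ppp2r5a and not in that of Kbtbd8, against 72.3% of all windows. None of the 3 holds the TATA letters TATAAA or TTTATA (13.6% of all windows), the homeobox letters TAATTA or TAATTG or CAATTA (12.4%) or the half-sites TGACG or CGTCA (20.8%). Their GC content was 62.3%, 69% and 60.7% for Rspry1, Ppp2r5a and Kbtbd8, against a median of 52.7%. The window of Ppp2r5a and that of Kbtbd8 begin inside the longer GENCODE gene models given with each gene.

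Rspry1 lies at chr8:94601937-94660275 on the plus strand (GRCm38, GENCODE M21). Its level was 373, 165 and 745 CPM in SN GV oocytes 1 to 3, and 692, 1229 and 474 CPM in NSN GV oocytes 1 to 3. It was 217, 152, 157 and 330 CPM in SN-MII oocytes 1 to 4, and 168, 162 and 227 CPM in NSN-MII oocytes 1 to 3. SN GV 3 was as high as the NSN oocytes, and the classes overlapped at both stages. The order of the group means was NSN GV (799 ± 388, SD, n = 3), SN GV (428 ± 294, n = 3), SN-MII (214 ± 82.8, n = 4) and NSN-MII (185 ± 36.1, n = 3), and each neighbouring pair overlapped. Rspry1 overlaps Fam192a on the other strand. Reads were not assigned by strand, and Fam192a had 34.9 to 137 FPKM, which moved with Rspry1 little at GV (r = -0.13, 6 libraries) and more at MII (r = 0.43, 7 libraries).

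Ppp2r5a lies at chr1:191351975-191403272 on the minus strand. SN GV oocytes 1 to 3 held 159, 102 and 602 CPM, and NSN GV oocytes 1 to 3 held 1088, 517 and 123 CPM. SN-MII oocytes 1 to 4 held 80.2, 114, 104 and 52.8 CPM, and NSN-MII oocytes 1 to 3 held 415, 249 and 75.0 CPM. In each class at GV, 1 oocyte departed from its fellows: SN GV 3 stood with the high NSN oocytes and NSN GV 3 with the low SN oocytes. NSN-MII 3 likewise fell among the SN-MII oocytes. The means were 576 ± 485 for NSN GV, 288 ± 274 for SN GV, 246 ± 170 for the NSN-MII and 87.5 ± 27.1 for the SN-MII group, with overlap of every neighbouring pair.

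Xdh lies at chr17:73883895-73950196 on the minus strand. It had 285, 184 and 673 CPM in SN GV oocytes 1 to 3 and 1057, 727 and 249 CPM in NSN GV oocytes 1 to 3. It had 80.0, 148, 163 and 42.0 CPM in SN-MII oocytes 1 to 4 and 525, 283 and 76.8 CPM in NSN-MII oocytes 1 to 3. The same oocytes as for Ppp2r5a stood apart: SN GV 3 was high, and NSN GV 3 and NSN-MII 3 were low. The means were 678 ± 406 in NSN GV, 381 ± 258 in SN GV, 295 ± 225 in NSN-MII and 108 ± 56.9 in SN-MII, again with overlap between neighbours. On the same strand Xdh overlaps the processed pseudogene CT025731.2, which was listed at 0 FPKM in every library.

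Kbtbd8 lies at chr6:95117240-95129790 on the plus strand. SN GV oocytes 1 to 3 had 749, 858 and 537 CPM, and NSN GV oocytes 1 to 3 had 496, 92.7 and 738 CPM. SN-MII oocytes 1 to 4 had 1734, 1496, 1574 and 1802 CPM, and NSN-MII oocytes 1 to 3 had 1263, 1330 and 1649 CPM. A single oocyte, NSN GV 2, was far below all others, while NSN GV 3 lay inside the SN range. The means were 1651 ± 141 in SN-MII, 1414 ± 206 in NSN-MII, 714 ± 163 in SN GV and 442 ± 326 in NSN GV, and only NSN-MII and SN GV, of the neighbouring pairs, did not overlap. The antisense gene Kbtbd8os reached at most 12.7 FPKM, with r = -0.69 to Kbtbd8 at GV and -0.42 at MII. Reads were not assigned by strand, but the expected counts of Kbtbd8 were whole numbers in every library. No split of reads with another gene thus shows in them. Those of Arhgap12 were whole too. The expected counts of Rspry1, Ppp2r5a and Xdh were not whole in any library, so a split of reads does show there.

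Arhgap12 lies at chr18:6024427-6136098 on the minus strand. Its level was 441, 449 and 355 CPM in SN GV oocytes 1 to 3, and 247, 119 and 382 CPM in NSN GV oocytes 1 to 3. It was 804, 828, 855 and 1047 CPM in SN-MII oocytes 1 to 4, and 643, 695 and 870 CPM in NSN-MII oocytes 1 to 3. NSN GV 2 was again the lowest oocyte, and NSN GV 3 again lay among the SN oocytes. The means were 883 ± 111 in SN-MII, 736 ± 119 in NSN-MII, 415 ± 51.7 in SN GV and 249 ± 132 in NSN GV. Oocytes of the 2 classes of a stage overlapped, and those of the 2 stages did not.

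**Figure D1:**
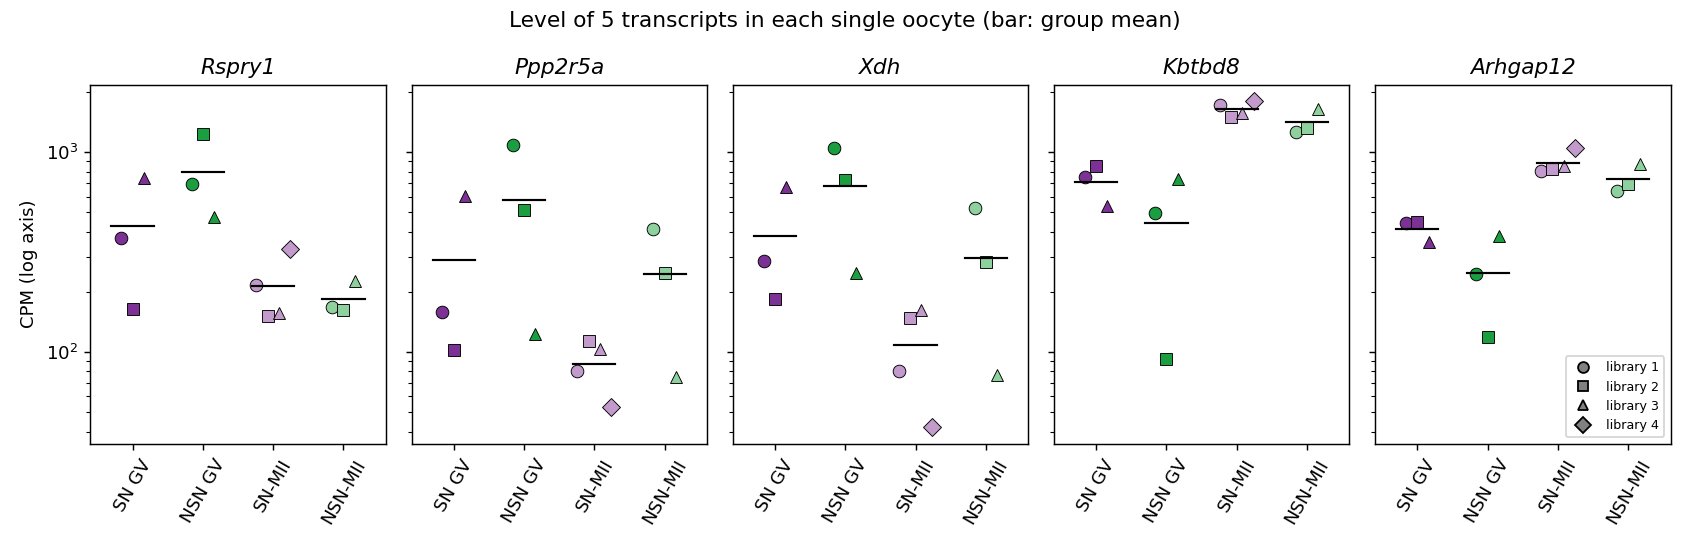
Level of each transcript in CPM (log axis) by group, with 1 point per oocyte, the marker shape giving the library number and the bar the group mean. NSN and SN overlap for every gene at both stages, and Kbtbd8 and Arhgap12 are higher in every MII than in every GV oocyte.

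The spread between oocytes of the same class was measured at each stage as the SD of log2(CPM + 1) after the mean of each class was removed. The members were chosen on the values of these same GV oocytes, so their rank in spread at GV is only a description. The lowest and the highest GV oocyte differed 7.46-fold for Rspry1, 10.6-fold for Ppp2r5a, 5.74-fold for Xdh, 9.25-fold for Kbtbd8 and 3.78-fold for Arhgap12. The SD within class at GV was 1.47 for Ppp2r5a, the highest of the 1151 genes within 1 log2 unit of its level. It was 1.14 for Kbtbd8, 1.02 for Xdh, 0.91 for Rspry1 and 0.61 for Arhgap12, against a median of 0.38 over the 11375 genes. Among genes of similar level these lay at the percentiles 99.7, 99.5, 98.1 and 92.9. For Kbtbd8 and Arhgap12 a single oocyte carried most of this: without NSN GV 2 their SD was 0.37 and 0.30.

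Class accounted for the smaller share of the variation at GV. Of the sum of squares over the 6 GV oocytes, 13.3% lay between NSN and SN for Ppp2r5a, 19.3% for Xdh, 26.1% for Kbtbd8, 33.0% for Rspry1 and 43.5% for Arhgap12, where the median of all genes was 9.27%. These shares come from the contrast that chose the genes.

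At MII the members parted, and Xdh and Ppp2r5a, with the widest spread, had also been chosen from the MII list. A choice by a class difference over few oocytes can favour genes of wide spread, so these ranks are a description. Xdh kept an SD within class of 1.13 (percentile 99.7 among genes of similar level) and Ppp2r5a of 0.88 (98.9), and their highest and lowest oocytes differed 12.5-fold and 7.86-fold. Rspry1 had 0.44 (91.7). Kbtbd8 had 0.16 (23.3) and Arhgap12 0.20 (37.7), with ranges of 1.43-fold and 1.63-fold, so the transcripts that rose by MII were also those whose spread at MII was below the median of genes at their level. With library totals in place of TMM the SD of Kbtbd8 and Arhgap12 was lower still, at 0.075 and 0.085. Without NSN-MII 3 the SD of Ppp2r5a was 0.50, and without SN-MII 4 that of Rspry1 was 0.28.

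**Figure D2:**
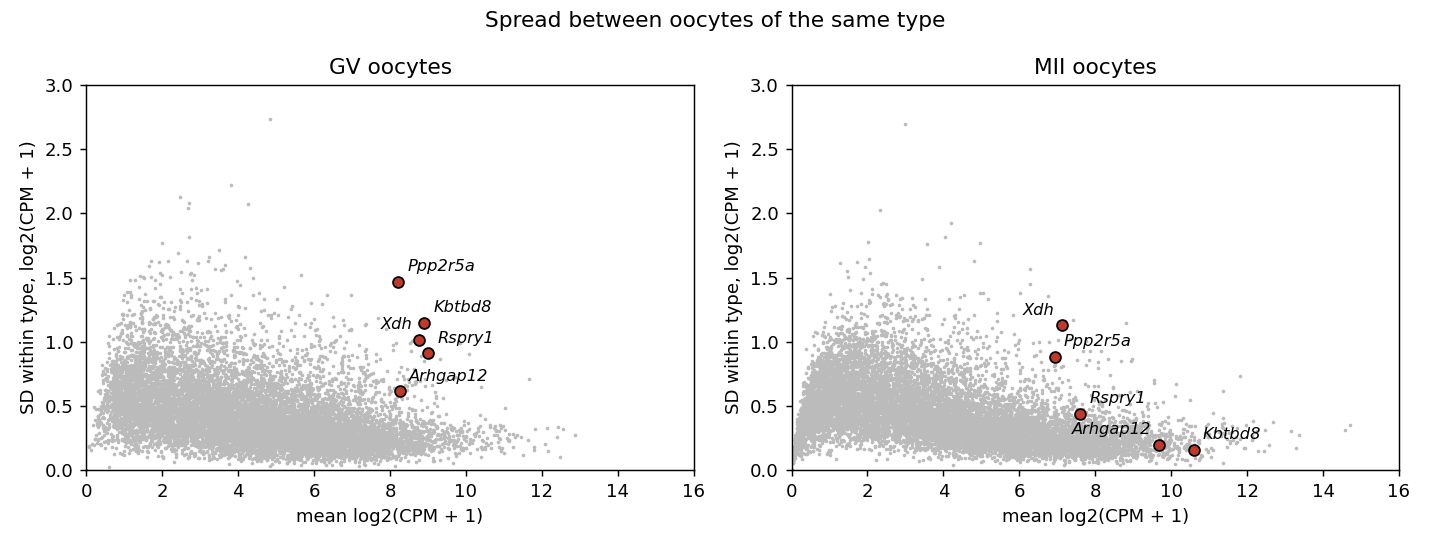
SD within class against mean level, both in log2(CPM + 1), for the genes tested (grey) and the 5 transcripts (red) at GV and at MII. At GV, where all 5 were chosen, they lie in the upper part of the cloud at their level. At MII, where Xdh and Ppp2r5a were also chosen, only these and Rspry1 do.

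Across the 6 GV oocytes, Ppp2r5a and Xdh moved as one (r = 0.995, Spearman ρ = 1, class means removed), and Kbtbd8 and Arhgap12 did too (r = 0.98, ρ = 1). Among 11373 genes, Xdh was at rank 8 by r with Ppp2r5a, and Arhgap12 at rank 232 by r with Kbtbd8. Rspry1 went with Ppp2r5a (r = 0.74) and Xdh (r = 0.79) and against Kbtbd8 and Arhgap12 (r = -0.68 with each). The other 4 pairs had r from -0.58 to -0.40. All these values rest on 6 libraries that share a scaling and are given without a test.

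Some of these values turned on single oocytes. Over each omission of 1 GV oocyte, r of Ppp2r5a and Xdh stayed between 0.990 and 0.997 and r of Kbtbd8 and Arhgap12 between 0.932 and 0.999. Ppp2r5a against Kbtbd8 moved from -0.40 to -0.98 without NSN GV 2 and to 0.10 without NSN GV 3. Xdh against Kbtbd8 moved likewise from -0.46 to -0.99 and to -0.0037. The opposition of the 2 sets at GV thus had no stable size, while the likeness within each did.

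The GV lists did not use the MII oocytes, and there the 10 pairs were tested by exact two-sided permutation of the libraries within their class (144 orders, smallest p 0.00694) with Benjamini-Hochberg adjustment over the 10 pairs. Xdh and Ppp2r5a had been listed on the difference between classes at MII. Removal of the class means takes that difference out of these values but does not undo the choice. Tests of pairs with these genes are thus not independent of it, and their p-values here and below are a description. The adjustment over the 10 pairs also ties the adjusted p-values of the other pairs to them. NSN-MII 1, which raised both differences, also lay 1.06 (Ppp2r5a) and 1.22 (Xdh) above its class mean on the log2 scale. Of the 10 pairs, 7 hold Xdh, Ppp2r5a or both. With TMM scaling 7 of 10 pairs passed an adjusted p of 0.05 by r, and 6 of those 7 hold Xdh or Ppp2r5a. None passed by ρ, where 3 pairs had an unadjusted p under 0.05, and none by r with library totals (4 unadjusted) or with log2(FPKM + 1) (5 unadjusted). A smallest p of 0.00694 becomes 0.0694 over 10 pairs, so no pair could pass on its own. With 1 MII oocyte left out, no pair passed either, and the smallest p was then 0.0208 or 0.0278. Many other genes reached an r as large as some passing pairs. Among 11362 genes, Rspry1 was at rank 1794 from the most negative r with Ppp2r5a and at rank 1074 from the most positive r with Kbtbd8. Kbtbd8 was at rank 65 from the most negative r with Xdh. The share of all pairs of genes that would pass was not computed.

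Ppp2r5a and Xdh had r = 0.97 at MII over 7 libraries (ρ = 0.89, exact permutation p = 0.0139, adjusted p = 0.0417 for r and 0.111 for ρ), and r = 0.91 without the 2 oocytes farthest from the median. Their r was 0.98 with library totals, 0.94 with FPKM and 0.96 to 0.99 with each oocyte left out. The value of r for this pair thus hardly moved, although its adjusted p passed 0.05 in only some of these settings. Among 11362 genes, Xdh was at rank 71 by r with Ppp2r5a, and Ppp2r5a at rank 49 by r with Xdh. NSN-MII 1 was the highest oocyte of its class for both, and NSN-MII 3 and SN-MII 4 were the lowest of theirs.

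The other correlations at MII depended on the scaling. Kbtbd8 ran against Ppp2r5a (r = -0.96, ρ = -1, exact permutation p = 0.00694, adjusted p = 0.0417 for r and 0.0694 for ρ, r = -0.84 without the 2 farthest oocytes). It ran against Xdh in the same way (r = -0.97, ρ = -0.89, exact permutation p = 0.0139, adjusted p = 0.0417 for r and 0.111 for ρ, r = -0.88 without the 2 farthest). With library totals these became r = -0.48 and r = -0.56. Kbtbd8 and Arhgap12, the pair that moved together at GV, had r = 0.82 at MII (ρ = 0.79, exact permutation p = 0.0625, adjusted p = 0.0694 for r and 0.139 for ρ). That r was 0.09 without the 2 farthest oocytes, 0.32 with FPKM and 0.052 with library totals.

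Rspry1 had correlations of opposite sign at the 2 stages with Ppp2r5a and Xdh under TMM scaling. It moved with Ppp2r5a and Xdh at GV, and at MII its r was -0.72 with Ppp2r5a (ρ = -0.71, exact permutation p = 0.0208, adjusted p = 0.0417 for r and 0.111 for ρ) and -0.84 with Xdh (ρ = -0.71, exact permutation p = 0.0278, adjusted p = 0.0463 for r and 0.139 for ρ). Without the 2 farthest oocytes these were -0.23 and -0.55, and with library totals -0.54 and -0.69. With the number of detected genes held fixed, the partial r at MII was 0.21 with Ppp2r5a and -0.44 with Xdh, so the sign for Ppp2r5a turned. The difference between the stages was not tested. Of the remaining pairs, Rspry1 with Kbtbd8 (r = 0.81, ρ = 0.71, adjusted p = 0.0417 and 0.111, r = 0.68 without the 2 farthest) and Ppp2r5a with Arhgap12 (r = -0.90, ρ = -0.79, adjusted p = 0.0496 and 0.139, r = -0.54 without the 2 farthest) passed by r in the exact permutation test. Xdh with Arhgap12 (r = -0.89, adjusted p = 0.0521) and Rspry1 with Arhgap12 (r = 0.77, adjusted p = 0.0764) did not.

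**Figure D3:**
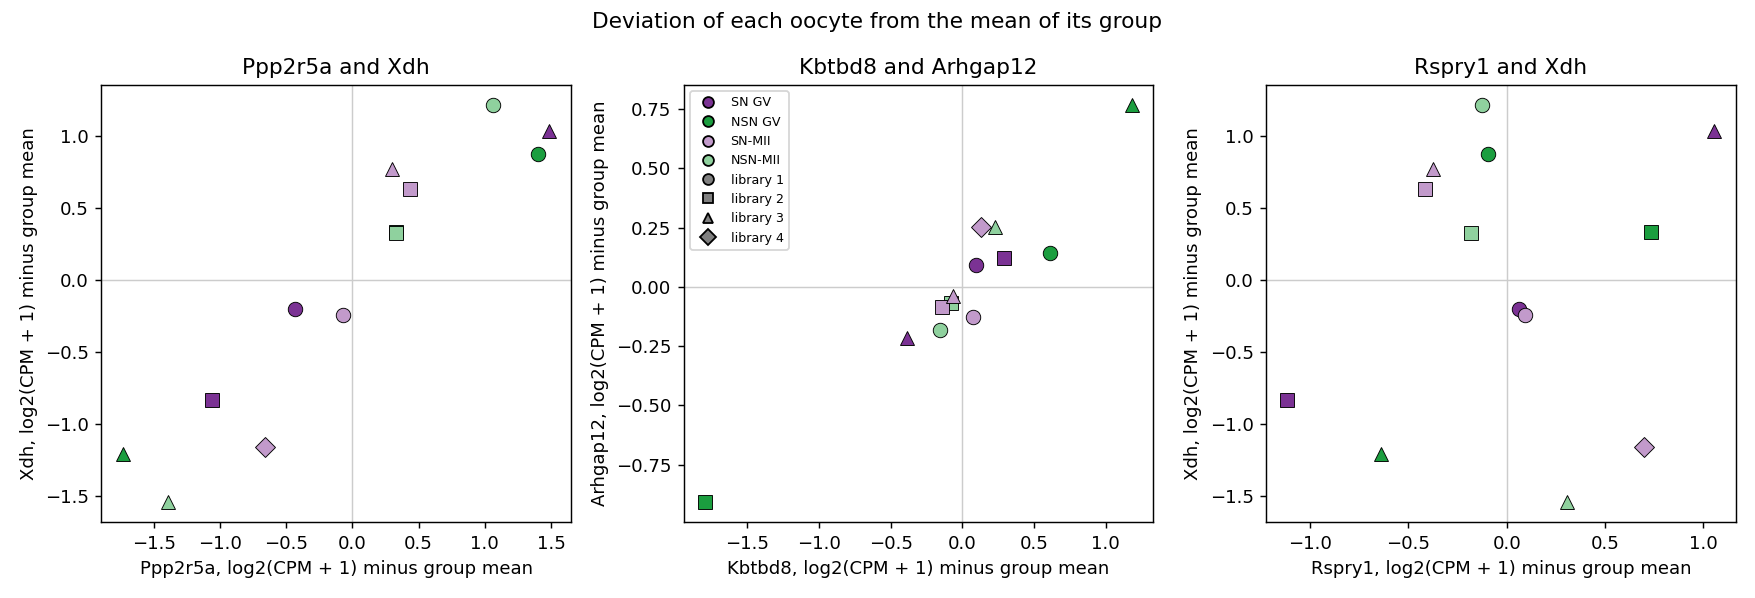
Deviation of each oocyte from its group mean in log2(CPM + 1) for 3 pairs of transcripts, colours giving the group and shapes the library number. Ppp2r5a and Xdh lie along 1 rising line at both stages, Kbtbd8 and Arhgap12 spread mainly at GV with NSN GV 2 and NSN GV 3 at the ends, and Rspry1 and Xdh rise together at GV and oppose each other at MII.

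**Figure D4:**
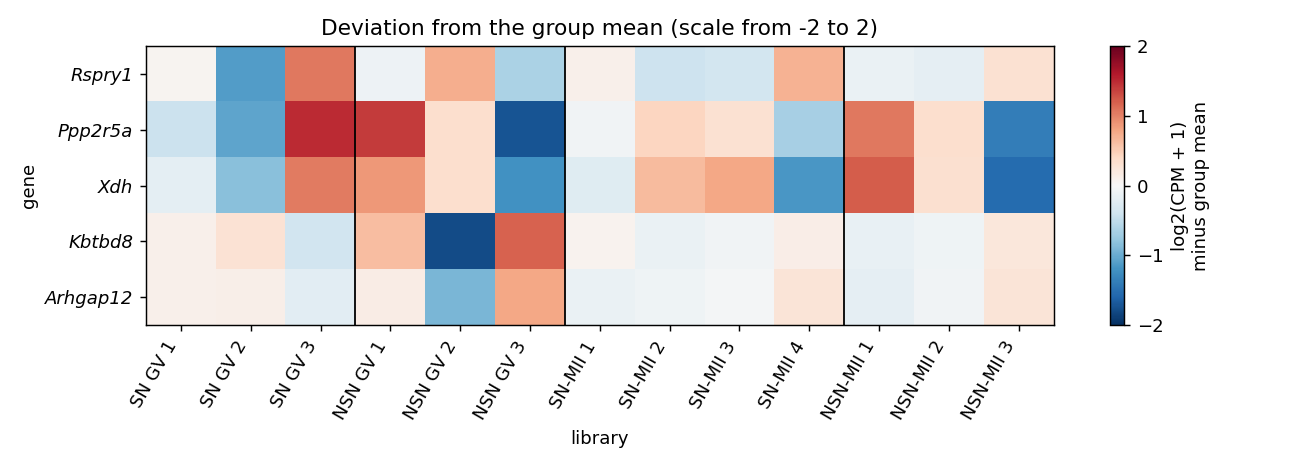
The same deviations for all 5 transcripts, with libraries as columns, from blue (below the group mean) to red (above). SN GV 3 is high for Rspry1, Ppp2r5a and Xdh, NSN GV 2 is low for Kbtbd8 and Arhgap12, and NSN-MII 3 and SN-MII 4 are low for Ppp2r5a and Xdh.

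The number of genes with a count moved with the members. At MII its r was 0.95 with Ppp2r5a, 0.93 with Xdh, -0.80 with Rspry1, -0.95 with Kbtbd8 and -0.92 with Arhgap12. With it held fixed, the partial r was 0.77 for Ppp2r5a and Xdh, -0.73 for Xdh and Kbtbd8 and -0.62 for Ppp2r5a and Kbtbd8. It was nearer to 0 for Rspry1 with Kbtbd8 (0.29), Ppp2r5a with Arhgap12 (-0.20) and Xdh with Arhgap12 (-0.23), and it turned sign for Kbtbd8 with Arhgap12 (-0.38) as for Rspry1 with Ppp2r5a. At GV its r was 0.89 with Kbtbd8, 0.79 with Arhgap12 and -0.72 with Rspry1, but -0.26 with Xdh and -0.19 with Ppp2r5a, and the partial r was 0.998 for Ppp2r5a and Xdh and 0.989 for Kbtbd8 and Arhgap12. Its part in these correlations beyond the partial values was not tested.

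The members were also set against the main directions in which all other genes varied. Each component was given the sign that made its r with Xdh positive. The r of other genes with these components was not computed, so the values are not shown to be particular to the members. At GV the first component of 11370 other genes held 42.0% of the variance within class, with NSN GV 2 at one end and NSN GV 3 at the other. This component had r = -0.96 with Arhgap12, -0.93 with Kbtbd8, 0.85 with Rspry1, 0.75 with Xdh and 0.71 with Ppp2r5a. The second component, with 34.5%, was led by NSN GV 1 and went with Ppp2r5a (r = 0.71) and Xdh (r = 0.65) more than with Kbtbd8 (r = 0.35), Arhgap12 (r = 0.19) or Rspry1 (r = 0.17). At MII the first component held 42.7% and had r = 0.98 with Ppp2r5a, 0.93 with Xdh, -0.93 with Kbtbd8, -0.89 with Arhgap12 and -0.66 with Rspry1.

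Whether likeness at GV carried over to MII was read from the 100 genes with the highest r with each member at GV. For Ppp2r5a their median r at MII was 0.60, against 0.13 over all genes, and 80 of 100 were positive, where 55.5% of all genes were. For Xdh the median was 0.55 against 0.12, and 73 of 100 were positive. For Rspry1 (-0.11 against -0.08), Kbtbd8 (-0.11 against -0.12) and Arhgap12 (0.11 against -0.13) the picked genes lay nearer to the rest, and for Arhgap12 the median was -0.14 with FPKM and -0.44 with library totals. The pick rested on 6 libraries, so a median near that of all genes does not show that a shared pattern was missing. The median stayed above 0.49 for Ppp2r5a and Xdh in each alternative run, with 50 or 500 genes picked, FPKM or library totals.

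The genes most like each member over all 13 libraries were taken among 7280 genes with a mean of at least 10 CPM, group means removed. Xdh was most like Tspan18, a tetraspanin of the cell membrane (r = 0.99), and B3galnt1, a glycosyltransferase of globoside synthesis (r = 0.97). Ppp2r5a was most like Dpf2, a subunit of BAF chromatin remodelling complexes (r = 0.97), and Ostm1, a lysosomal membrane protein (r = 0.96). Kbtbd8 was most like Ppip5k2, a kinase that makes inositol pyrophosphates (r = 0.996), and Zfp638, a zinc finger protein (r = 0.99). Arhgap12 was most like Phf6, a PHD finger protein (r = 0.99), and Washc2, a subunit of the WASH complex on endosomes (r = 0.98). Rspry1 was most like Taf1d, a subunit of the RNA polymerase I factor SL1 (r = 0.95), and Tipin, a partner of the replication protein Timeless (r = 0.94).

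Some of these neighbours also ranged widely. Tspan18 had 14.6 to 93.3 CPM at GV and 9.25 to 73.1 CPM at MII, and Ppip5k2 18.8 to 247 CPM at GV and 499 to 730 CPM at MII. Ppip5k2 rose by MII with Kbtbd8 (log2 fold change 1.87, SE 0.36, edgeR adjusted p = 0.000233), and Washc2 with Arhgap12 (1.44, SE 0.22, edgeR adjusted p = 1.68e-05). Tspan18 did not pass the test (-0.62, SE 0.42, edgeR adjusted p = 0.197), nor did Dpf2 (-0.16, SE 0.44, edgeR adjusted p = 0.753), although Xdh and Ppp2r5a did. Taf1d fell with Rspry1 (-0.83, SE 0.25, edgeR adjusted p = 0.00685), while Tipin rose (1.07, SE 0.15, edgeR adjusted p = 9.76e-06). Zfp638 (1.42, SE 0.27) rose with Kbtbd8 and Phf6 (0.96, SE 0.20) with Arhgap12, and Ostm1 and B3galnt1 did not pass. Likeness between oocytes of a group thus did not always go with likeness between stages.

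Dividing the count of a gene by its FPKM gives the transcript length that RSEM attributed to it in that oocyte, here relative to the library total of the count table and so approximate. For Xdh this length was 1861, 1471 and 2627 bases in SN GV oocytes 1 to 3 and 3671, 2884 and 1620 bases in NSN GV oocytes 1 to 3. It was 2221, 4085, 3225 and 1939 bases in SN-MII oocytes 1 to 4 and 4982, 3277 and 2457 bases in NSN-MII oocytes 1 to 3. Oocytes with much Xdh thus also had a long attributed transcript, and r with log2 CPM was 0.99 at GV and 0.91 at MII, where both measures hold the count. GENCODE gives Xdh 2 protein-coding transcripts, of 1768 and 4600 bases, and other forms of 368 to 7775 bases.

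The relative length of Xdh varied with an SD of 0.56 on the log2 scale, at percentile 99.4 of 2806 genes with a median of 0.054. In FPKM, which divides by this length, Xdh spread less: its SD within class at GV was 0.60 instead of 1.02. Kbtbd8 had 2619 bases in NSN GV 2, its lowest oocyte, and 3766 to 5184 bases in the other 12. Its GENCODE protein-coding transcripts number 3, of 472 to 4869 bases. Ppp2r5a varied from 2841 to 4021 bases, with 1 annotated protein-coding transcript of 3088 bases and a longest retained-intron form of 3541 bases. Rspry1 (3340 to 3747 bases) and Arhgap12 (3887 to 4522 bases) varied little. Whether the lengths reflect other isoforms or uneven coverage of the transcript was not tested.

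**Figure D5:**
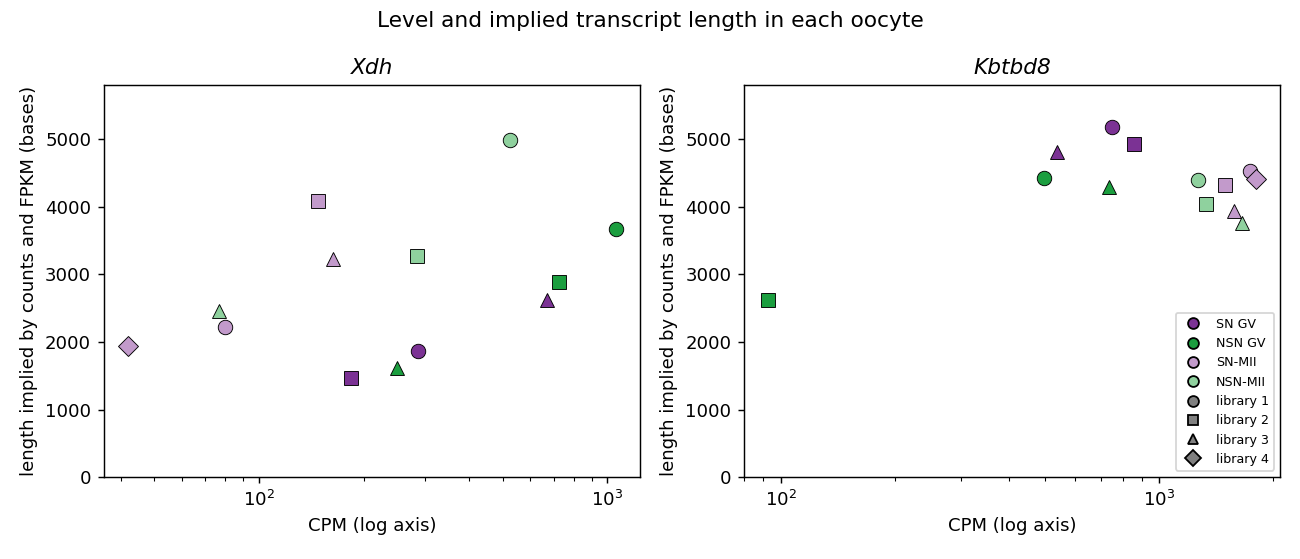
Transcript length implied by counts and FPKM (bases) against CPM (log axis) for Xdh and Kbtbd8, 1 point per oocyte. For Xdh the length rises with the level within each stage, and for Kbtbd8 NSN GV 2 stands alone at 2619 bases and 92.7 CPM.

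All 5 transcripts differed between MII and GV. This contrast did not choose them, but it uses the GV oocytes whose values did, so its tests are not independent of the choice. Between MII and GV, tested over all 13 libraries with edgeR's quasi-likelihood test and Benjamini-Hochberg adjustment, all 5 members passed, where 68.6% of the 11375 genes did (31.7% higher and 36.9% lower at MII), so a count of 5 called stood close to the background. Kbtbd8 rose by 1.45 on the log2 scale (SE 0.31, edgeR adjusted p = 0.000525) and Arhgap12 by 1.33 (SE 0.21, edgeR adjusted p = 2.57e-05), and every MII oocyte was above every GV oocyte for both. Rspry1 had a log2 fold change of -1.56 (SE 0.31, edgeR adjusted p = 0.000277), Xdh of -1.51 (SE 0.44, edgeR adjusted p = 0.00589) and Ppp2r5a of -1.48 (SE 0.48, edgeR adjusted p = 0.0120), and their MII and GV oocytes overlapped. In FPKM, where limma was used, the change of Xdh was -2.30 (SE 0.34). The fall of Ppp2r5a rested on single GV oocytes: its adjusted p in edgeR was 0.0792 without SN GV 3 (log2 fold change -0.90) and 0.0611 without NSN GV 1 (-1.05). The median log2 fold change of all genes was -0.10, and -0.24 in FPKM. Reverse transcription was primed on poly(A) tails, so a change in RNA amount and one in tail length cannot be told apart.

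Between NSN and SN at MII, 0.259% of 10028 genes were called (0.00997% higher and 0.249% lower in NSN). Of the 3 members that no MII list had chosen, none was called by edgeR or DESeq2, and none had an unadjusted p under 0.05 in either. The log2 fold change of NSN over SN was -0.20 for Rspry1 (SE 0.26, edgeR adjusted p = 0.889), -0.22 for Kbtbd8 (SE 0.15, edgeR adjusted p = 0.707) and -0.26 for Arhgap12 (SE 0.16, edgeR adjusted p = 0.673). For Ppp2r5a it was 1.503 (SE 0.44) and for Xdh 1.46 (SE 0.54), given without a test. These rested on single oocytes in both directions: they were 1.93 and 1.91 without NSN-MII 3, and 0.90 and 0.75 without NSN-MII 1. In FPKM the value for Xdh was 0.95.

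Partners of 4 of the members were taken from lists by function, and the genes of widest spread named from each were chosen after their values were seen. Their spreads were not matched for level. Of 19 other PP2A genes tested, 8 rose, 6 fell and 5 did not pass by MII, with a median SD within class at GV of 0.37. The highest was 0.67 (Ppp2r5b, at a mean of 4.21 CPM at GV), against 1.47 for Ppp2r5a (432 CPM). The B56 subunits differed: Ppp2r5d fell (-1.89, SE 0.26, edgeR adjusted p = 6.42e-06), Ppp2r5c rose (0.83, SE 0.14, edgeR adjusted p = 6.11e-05), and so did Ppp2r5e (0.82, SE 0.28, edgeR adjusted p = 0.0175), while Ppp2r5b did not pass (-1.13, SE 0.53, edgeR adjusted p = 0.0660). The scaffold Ppp2r1a rose (1.34, SE 0.14, edgeR adjusted p = 4.53e-07) and the catalytic subunit gene Ppp2ca fell (-2.19, SE 0.36, edgeR adjusted p = 4.62e-05). Igbp1, which binds the free catalytic subunit, fell most of the list (-4.37, SE 0.22), followed by the subunit Ppp2r2b (-3.29, SE 0.24).

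Of 19 other genes of purine catabolism and salvage, 10 fell, 4 rose and 5 did not pass, with a median SD of 0.30 at GV against 1.02 for Xdh. Impdh2, an IMP dehydrogenase of guanine nucleotide synthesis, had a higher SD than Xdh (1.41) and r = 0.92 with it at GV, but -0.09 at MII. The mean of Impdh2 at GV was only 11.6 CPM, against 529 CPM for Xdh. Mocos, which sulfurates the molybdenum cofactor that the Xdh enzyme needs, fell from 89.8 ± 29.3 CPM at GV (SD, n = 6) to 4.22 ± 1.77 CPM at MII (n = 7), a log2 fold change of -4.38 (SE 0.32). Within class it had r = 0.83 with Xdh at GV and 0.76 at MII. Gmpr, a GMP reductase, fell (-3.80, SE 0.15), and the salvage enzyme Hprt rose (1.60, SE 0.17), as did Pnp (0.84, SE 0.18) and Gda (0.63, SE 0.17). Aox1, a relative of Xdh, was listed at 0 in all libraries.

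Of 21 other genes of the CUL3 ligase and its BTB-Kelch adaptors, 8 rose, 5 fell and 8 did not pass, with a median SD of 0.43 at GV against 1.14 for Kbtbd8. Klhl21 (1.22) and Kbtbd7 (1.10) spread about as widely, Klhl21 at a mean of only 2.46 CPM at GV and Kbtbd7 at 279 CPM, against 578 CPM for Kbtbd8. At GV Kbtbd7 had r = 0.99 with Kbtbd8 and Klhl21 -0.28, while at MII both were below 0 (-0.34 and -0.11). Tcof1, a substrate, rose with Kbtbd8 (1.33, SE 0.19, edgeR adjusted p = 1.07e-05) and had r = 0.93 with it at GV and 0.68 at MII. The other substrate, Nolc1, had r = 0.07 and 0.25, Cul3 -0.62 and -0.69, and the RING subunit gene Rbx1 -0.90 and 0.61. Nolc1 (-0.04, SE 0.14), Cul3 (0.28, SE 0.29) and Rbx1 (-0.07, SE 0.16) did not pass. Nedd8, whose product activates cullins, fell (-1.76, SE 0.31), as did the adaptor Kbtbd11 (-2.98, SE 0.71), at a low level.

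Of 18 other genes with a SPRY domain, 4 rose, 5 fell and 9 did not pass, with a median SD of 0.29 and a highest of 0.70 (Spryd3) at GV, against 0.91 for Rspry1. Ddx1, an RNA helicase (-3.51, SE 0.29), and Trim27, a RING finger protein (-3.43, SE 0.22), fell most.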

How the data were processed

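Single oocytes were converted to cDNA with SMART-seq2 and sequenced without molecular identifiers or a stated strand step. Per the submitters' processing notes, Trim Galore 0.4.4, Bowtie2 2.3.5, RSEM 1.2.28 and mm10 were used. For each stage the authors deposited 1 table of RSEM expected counts, in which reads shared between genes are split. They also deposited 1 table of FPKM for all libraries, that is, counts scaled by length and library, made by the authors with the same tool. The files pair no symbols with identifiers, and 18887 of 18939 symbols (99.7%) were found in GENCODE M21. Groups came from the sample titles.

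Counts were rounded, filtered with filterByExpr, scaled by TMM and tested with edgeR 4.0.16 (R 4.3.3), called at an adjusted p under 0.05. DESeq2 1.42.0 and limma 3.58.1 on log2(FPKM + 1) were alternatives. Covariation used log2(CPM + 1), with a pseudocount of 1, minus group means. Named genes were the members, for each the 2 genes most like it, fixed partners, and the 2 called genes of each list with the largest change between stages. The members and lists were chosen with earlier results of these data known. Scaling by library totals, partial correlations and implied lengths were chosen after seeing the data. Fits and correlations were tested on simulated data. Total counts of 7140416 to 8846287 per library make counting error small beside the spread between oocytes, and it is only part of the error. Raw reads were not analysed here, and 1 of the gene lists is not reported here.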

Additional observations from a re-analysis of the deposited data

Results flagged for a closer look

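Among 45 sets of values of a named gene in the 4 SN-MII oocytes, 3 had 1 oocyte farther from the others than a test of single extreme values allows at 95%. Chance gives about 1 in 20 for genes not picked on these values, and some of the named genes were. Taf1d had 43.1 CPM in SN-MII 4 and 30.0 to 31.5 CPM in the other 3, and Rspry1 too was highest in SN-MII 4. Taf1d was picked as the gene most like Rspry1 over these libraries, so the shared high oocyte carries no further weight. Cdc42 had 352 CPM in SN-MII 3 and 419 to 430 CPM in the others. Kbtbd11 had 0.515 CPM in SN-MII 2 and 0.132 to 0.136 CPM in the others, a level of a few reads.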

How the results depend on the processing

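The fold changes of the members between MII and GV kept their direction in each of 90 alternative values and their call in 88, both exceptions being those of Ppp2r5a without 1 GV oocyte. The count of genes called between the stages was 7480 to 7830 with each library left out and 7452 with the replicate number as a block. Between NSN and SN at MII, 26 genes were called, against 217 with DESeq2, 89 without a filter on low counts, 4 with limma on FPKM, 2 with the replicate block and 2 to 233 with each library left out, 233 being the count without NSN-MII 3. Same-numbered libraries did not deviate together (r from -0.46 to 0.10), so the numbers were not taken as pairs. The block moved the fold changes of Ppp2r5a and Xdh at MII to 1.03 and 0.88. It turned the fold change of Rspry1 at MII to 0.085, and leaving out SN-MII 4 turned it to 0.081, in a range of -0.37 to 0.081. The count of member pairs correlated at MII was 7, and 0 with log2(FPKM + 1), 0 with library totals, chosen after seeing the data, and 0 to 0 with each library left out, where fewer orders of the libraries raise the smallest p. With each GV library left out, r at GV ranged from -0.983 to 0.103 for Ppp2r5a and Kbtbd8 and from -0.982 to 0.0472 for Ppp2r5a and Arhgap12, the highest being without NSN GV 3 and the lowest without NSN GV 2. For the other values the cause of a change was not tested. Depth gave a counting error small beside the spread between oocytes.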
